A study of Mus musculus with 12 samples.

Results

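The leukocyte integrins examined here are the transcripts of 10 genes, Itgam, Itgal, Itgax, Itgad, Itgb2, Itga4, Itgb1, Itgb7, Itgav and Itgb5. They were chosen by mouse symbol and matched to Ensembl rows of the deposited tables, and each symbol had a row, giving 10 of 56953 listed genes. The study asked how macrophages that arise before birth differ from those made by adult hematopoietic stem cells (HSCs). Polyadenylated RNA was sequenced from myeloid cells sorted from the bone marrow of female C57BL/6J mice 8 weeks old. The study traced embryonic macrophages in Rank cre/+;R26.eYFP fl/+ mice, where Cre made from the Rank locus switches on eYFP in them and cells of adult stem cell origin remain unlabelled. The genotype of the mice that gave the monocytes was not stated in the sources used here. The 12 libraries form 4 groups of 3: eYFP+ macrophages, eYFP- macrophages, Ly6Chi monocytes and Ly6Clo monocytes. How many animals went into a library was not stated in the sources used here, so p-values measure the spread between these samples, which may be partly technical.

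Integrins are heterodimers of an alpha and a beta chain that bind matrix or the surface of another cell once a signal from inside the cell has opened them. Beta2 (Itgb2, CD18) pairs with alphaL (Itgal, CD11a, forming LFA-1), alphaM (Itgam, CD11b, forming Mac-1), alphaX (Itgax, CD11c) or alphaD (Itgad, CD11d), and these dimers let leukocytes hold on to ICAMs and take up complement-coated particles. Alpha4 (Itga4) pairs with beta1 (Itgb1) to make VLA-4, a receptor of VCAM1 and fibronectin, or with beta7 (Itgb7) to make a receptor of the gut addressin MAdCAM-1. AlphaV (Itgav) with beta5 (Itgb5) binds vitronectin and, through the bridging protein MFG-E8, dying cells. Surface CD11b and VCAM1 were part of the sort: macrophages were taken as F4/80+ cells double positive for CD206 and VCAM1, and monocytes as CD11b+ cells. Differences of Itgam and Vcam1 between macrophages and monocytes are therefore given as a description of the gates.

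Transcript levels below are in TPM (a unit that corrects for gene length and library size) and are the scale used to compare genes, with less certainty for members whose transcripts share sequence with another gene (Itgam above all, then Itgad and Itga4). Differences between groups are DESeq2 log2 fold changes with their standard error (SE), and a gene was called at a Benjamini-Hochberg adjusted p under 0.05 over all genes tested. Libraries held 26390927 to 48618187 counts, the lowest total being that of Ly6Clo replicate 2. That library also had the fewest detected genes, 16434 against 21330 to 27634 in the others. In the check of identity, 10 of 10 bone marrow macrophage markers were called higher in macrophages. Of the 7 tested monocyte markers, 6 were called higher in monocytes. Cells were sorted by surface proteins, so a marker that encodes a gated protein describes the gate and is no independent check. Markers of other cells also differed: 8 of 9 neutrophil markers were called lower in macrophages (sums of 67.5 to 2034 TPM, against 6776 to 22585 TPM in monocytes), and 8 of 8 erythroid and 8 of 11 T and NK cell markers were called higher. So were 4 of the 6 tested megakaryocyte and platelet markers (sums of 121 to 201 TPM against 1.94 to 77.4 TPM). B cell marker sums were 463 to 702 TPM against 29.6 to 154 TPM, with 1 of 8 called higher. The part of such cells in the differences between macrophages and monocytes was not tested. Because these are bulk samples, fewer cells of a type and less RNA per cell cannot be told apart.

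Upstream sequences are shown for 4 members with unlike patterns: Itgam and Itgb7 were highest in Ly6Chi monocytes, Itgb5 was highest in macrophages, and Itgax was low in Ly6Chi monocytes alone. RefSeq promoter entries matched 7 of the 10 members (build GRCm38.p6, which is not the GRCm39 of the counts), and each run holds the 250 bases before the annotated start, 5′ to 3′. Capitals mark GAGGAA, a core bound by ETS factors such as PU.1, and GGGCGG, the GC box bound by Sp1, each searched on both strands.
Itgam (chr7:128062390-128062639, plus strand): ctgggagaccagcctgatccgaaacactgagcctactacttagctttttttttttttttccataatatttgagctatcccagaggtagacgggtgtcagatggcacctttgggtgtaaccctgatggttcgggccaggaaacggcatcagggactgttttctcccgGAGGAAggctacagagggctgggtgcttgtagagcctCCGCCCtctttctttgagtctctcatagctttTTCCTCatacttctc
Itgax (chr7:128129300-128129549, plus strand): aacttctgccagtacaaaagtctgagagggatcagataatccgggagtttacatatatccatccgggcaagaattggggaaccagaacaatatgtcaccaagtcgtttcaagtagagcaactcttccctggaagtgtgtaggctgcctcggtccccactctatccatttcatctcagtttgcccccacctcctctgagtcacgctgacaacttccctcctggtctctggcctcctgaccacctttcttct
Itgb7 (chr15:102231936-102232185, minus strand): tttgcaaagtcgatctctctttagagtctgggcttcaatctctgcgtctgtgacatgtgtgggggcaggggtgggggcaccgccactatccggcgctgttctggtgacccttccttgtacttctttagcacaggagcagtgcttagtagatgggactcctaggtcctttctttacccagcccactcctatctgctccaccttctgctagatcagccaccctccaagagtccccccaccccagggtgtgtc
Itgb5 (chr16:33829415-33829664, plus strand): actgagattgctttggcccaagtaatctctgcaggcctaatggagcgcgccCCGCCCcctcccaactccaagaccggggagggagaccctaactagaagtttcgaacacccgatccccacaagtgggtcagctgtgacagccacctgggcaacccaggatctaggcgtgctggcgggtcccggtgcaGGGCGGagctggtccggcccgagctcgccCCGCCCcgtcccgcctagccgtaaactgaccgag
Of these 4, Itgam held GAGGAA on both strands, with first bases at -84 and -15 from the start, and a GC box at -47. The Itgb5 window had 3 GC boxes, and those of Itgax and Itgb7 had neither motif. Among matched members not shown, Itgav held GAGGAA on both strands, at -218 and -7. Itgb1 held it at -9 with a GC box at -151, and Itga4 held a GC box at -114. Among 32851 promoter windows of the same length 23.3% held GAGGAA and 32.7% held GGGCGG, so the matches are a description of these letters only.

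**Figure D1:**
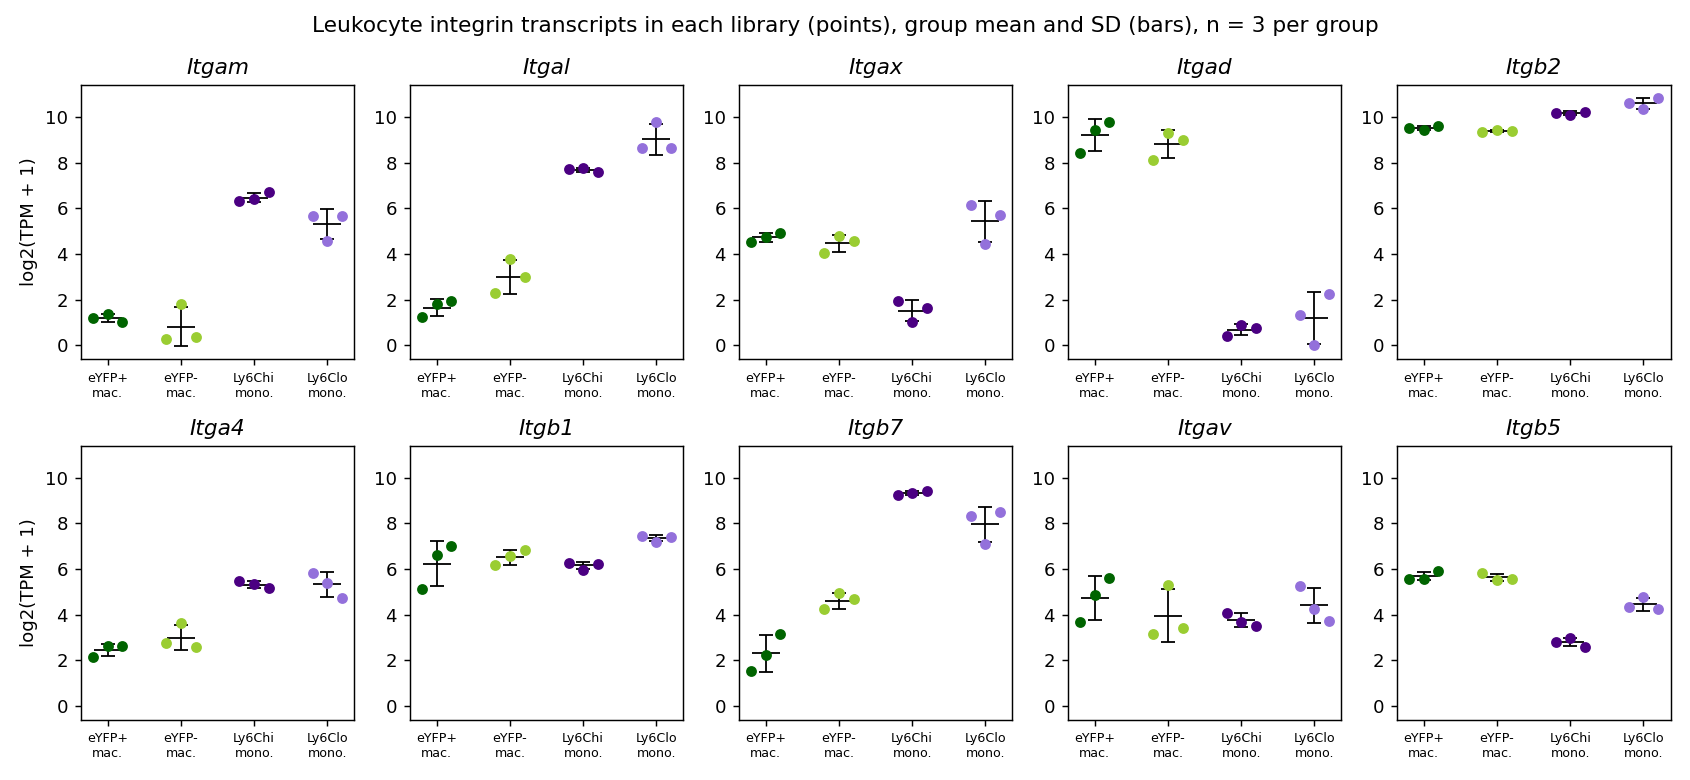
Level of each of the 10 members in each library as log2(TPM + 1) (vertical axis, same range in all panels) by group (horizontal axis); points are libraries, the long tick is the group mean and the bars are the SD of 3 libraries. Itgad sits above 8 in the 6 macrophage libraries and below 3 in the 6 monocyte libraries, while Itgal and Itgb7 show the opposite order.

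The alpha chains of beta2 differed between the cell types. Macrophages of both origins carried mostly Itgad and almost no Itgal or Itgam, and monocytes carried Itgal and Itgam and almost no Itgad. In Ly6Clo monocytes Itgax stood beside Itgam, at 2.23% to 13.4% of the summed TPM of these alpha chains against 2.43% to 9.98%. The common chain Itgb2 was abundant in all 12 libraries and was higher in monocytes by about 2.05-fold.

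Itgad, the alphaD chain, stood at 339, 697 and 870 TPM in eYFP+ macrophages and at 279, 634 and 513 TPM in eYFP- macrophages. The Ly6Chi libraries held 0.335, 0.874 and 0.679 TPM and the Ly6Clo libraries 1.47, 0.00 and 3.79 TPM. All 6 macrophage libraries lay above all 6 monocyte libraries, and Itgad was the most abundant alpha chain in each macrophage library. The difference between macrophages and monocytes was 8.91 on the log2 scale (SE 0.69, DESeq2 adjusted p = 5.97e-36). Between eYFP+ and eYFP- macrophages the groups overlapped, with a log2 difference of 0.45 (SE 0.98) and a 95% interval of -1.46 to 2.36. Genes on the opposite strand within Itgad followed it: 4931431B13Rik had 849 to 2636 counts in macrophage libraries and 0 to 2 in monocyte libraries. Whether counting used strand was not stated, and 22.0% of the 50-base words of Itgad transcripts occur in other genes, so reads of Itgad and of these neighbours cannot be told apart completely.

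Itgal, the LFA-1 chain, was at 212, 215 and 192 TPM in Ly6Chi monocytes and at 393, 880 and 399 TPM in Ly6Clo monocytes. It was at 1.37, 2.46 and 2.79 TPM in eYFP+ macrophages and at 3.83, 12.6 and 6.89 TPM in eYFP- macrophages. No library of one group fell within the range of another, so the order was Ly6Clo, Ly6Chi, eYFP- and then eYFP+. Macrophages minus monocytes came to -6.51 on the log2 scale (SE 0.33, DESeq2 adjusted p = 4.37e-85). Ly6Clo replicate 2, at 880 TPM, was far above the other libraries of its group.

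Itgam, the CD11b chain, was at 78.0, 82.9 and 103 TPM in Ly6Chi monocytes and at 49.9, 22.4 and 50.4 TPM in Ly6Clo monocytes. In eYFP+ macrophages it was at 1.29, 1.58 and 1.04 TPM, and in eYFP- macrophages at 0.205, 2.47 and 0.307 TPM. The macrophage and monocyte ranges did not meet. Because monocytes were sorted by CD11b, that difference is a description of the gate. In the eYFP- group, replicate 2 was the high library, and DESeq2 gave Itgam no adjusted p in any of the 7 contrasts because of its outlier (Cook's distance) filter. Without that filter, Ly6Chi and Ly6Clo monocytes differed by 1.12 (SE 0.68, adjusted p = 0.349) although their libraries did not overlap. Leaving out eYFP- replicate 2 gave the same 1.12 with a smaller error (SE 0.37, DESeq2 adjusted p = 0.0358). Itgam levels are uncertain, since in the GENCODE M21 transcripts 72.4% of its 50-base words are shared with the overlapping gene Gm49368, and how pairs that fit both genes were counted was not stated.

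Itgax, the CD11c chain, was called between the monocyte groups and not between the macrophage groups. Its levels were 22.1, 25.7 and 29.03 TPM in eYFP+ macrophages and 15.6, 26.3 and 22.9 TPM in eYFP- macrophages. Ly6Clo monocytes held 68.7, 20.6 and 51.4 TPM, whereas Ly6Chi monocytes held 2.79, 1.001 and 2.11 TPM. Only the Ly6Chi group stood apart, below all other libraries. Ly6Chi monocytes were lower than Ly6Clo monocytes, with a log2 difference of -4.54 (SE 0.46, DESeq2 adjusted p = 2.45e-20). Averaged over groups on the log2 scale, macrophages were higher than monocytes by 1.19 (SE 0.32, DESeq2 adjusted p = 0.00108), a mean over monocyte groups that lay on either side of the macrophages. Mean normalized counts ran the other way, at 1833 in macrophages and 2009 in monocytes. Against Ly6Clo monocytes alone the differences were -0.93 (SE 0.45, DESeq2 adjusted p = 0.114) for eYFP+ and -1.22 (SE 0.45, DESeq2 adjusted p = 0.0308) for eYFP- macrophages. The latter call was lost with edgeR (adjusted p = 0.0606), with the replicate block in DESeq2 (adjusted p = 0.0840) or edgeR (adjusted p = 0.109), and on leaving out any eYFP- replicate (DESeq2 adjusted p = 0.0581 to 0.138) or Ly6Clo replicate 1 or 3 (DESeq2 adjusted p = 0.167 and 0.101).

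The beta chain Itgb2 was at 729, 682 and 788 TPM in eYFP+ and at 642, 685 and 672 TPM in eYFP- macrophages. It reached 1160, 1088 and 1202 TPM in Ly6Chi and 1576, 1291 and 1823 TPM in Ly6Clo monocytes. Every macrophage library lay under every monocyte library, with a log2 difference of -1.04 (SE 0.15, DESeq2 adjusted p = 1.60e-11). The groups of monocytes did not overlap either, but their log2 difference of -0.44 (SE 0.21) did not pass (DESeq2 adjusted p = 0.192), with a 95% interval of -0.84 to -0.03 before adjustment over genes. Between macrophages the log2 difference was 0.17 (SE 0.21).

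The shares of the 4 alpha chains in their summed TPM give the same comparison within each library, free of library scaling. Itgad made up 93.2% to 96.4% of the sum in eYFP+ and 93.4% to 94.4% in eYFP- macrophages, against 0.00% to 0.751% in monocytes. Itgal made up 0.907% ± 0.657 (SD, n = 6) in macrophages and 76.6% ± 10.4 (SD, n = 6) in monocytes, and no library overlapped. This difference of -75.7 percentage points had an exact two-sided permutation p of 0.00216, the smallest that 6 against 6 libraries allow, and 0.00433 after adjustment over the 6 ratios tested. Itgam made up 0.196% ± 0.139 (SD, n = 6) against 18.5% ± 12.7 (SD, n = 6), which again rests on the gate. Dividing each TPM by the share of words found in no other gene, an alternative chosen after seeing the data, gave Itgam 56.7% to 65.5% and Itgal 33.95% to 42.6% in Ly6Chi monocytes, so which of these chains led there depended on the counting of shared reads. In Ly6Clo monocytes Itgal led under both ways of counting, and in macrophages Itgad did.

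Relative to its alpha chains, Itgb2 was less abundant in macrophages. The log2 ratio of Itgb2 to the summed alpha TPM was 0.36 ± 0.57 (SD, n = 6) in macrophages and 1.64 ± 0.58 (SD, n = 6) in monocytes. The difference was -1.28, with an exact permutation p of 0.00866 and an adjusted p of 0.0130. The ranges overlapped, at -0.20 to 1.10 and 0.49 to 2.01, the lowest monocyte value being in the Ly6Clo group.

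**Figure D2:**
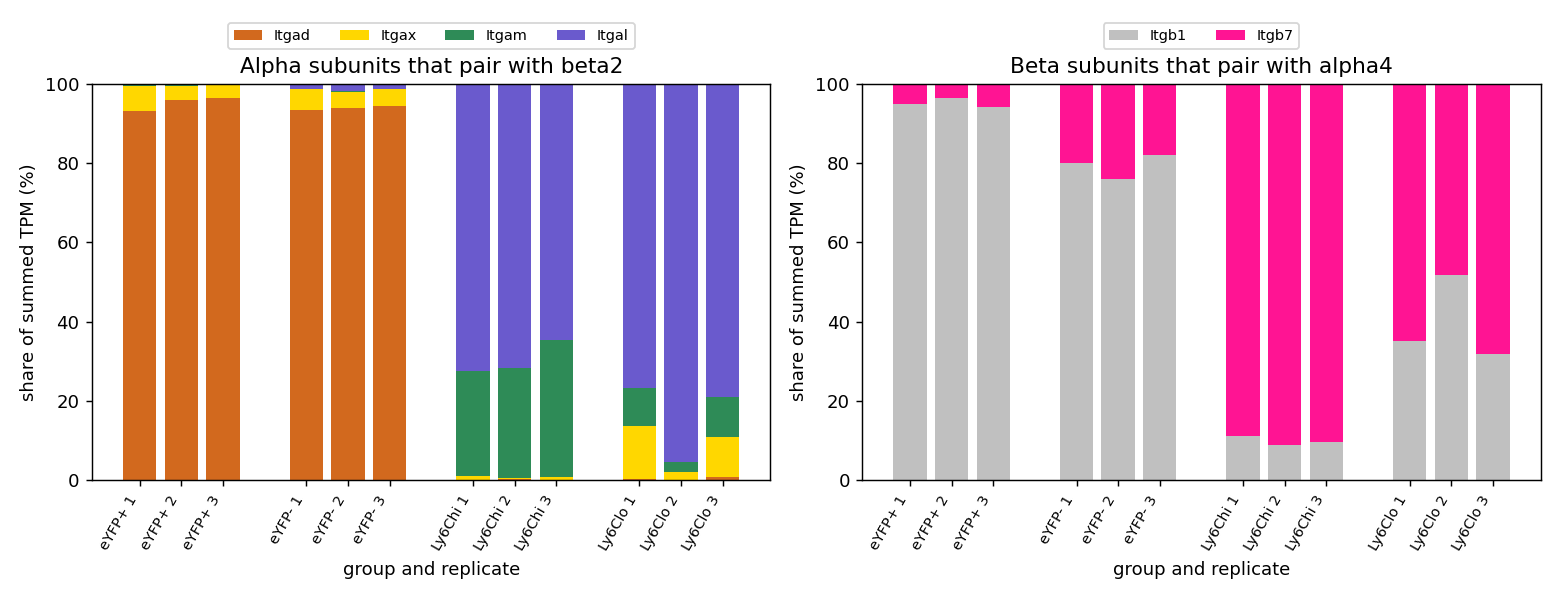
Left, share of each alpha chain (Itgad, Itgax, Itgam, Itgal) in the summed TPM of the 4 chains that pair with beta2; right, share of Itgb7 and Itgb1 in their summed TPM; one bar per library, vertical axes in percent. Itgad fills over 93% of each macrophage bar, and Itgb7 exceeds 88% in each Ly6Chi bar but stays under 6% in each eYFP+ bar.

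Members that bind VCAM1 and MAdCAM-1 were also lower in macrophages, with the exception of Itgb1. Itgb7, the beta chain of the MAdCAM-1 receptor, was at 601, 636 and 690 TPM in Ly6Chi and at 320, 134 and 358 TPM in Ly6Clo monocytes. It was at 17.9, 29.6 and 24.5 TPM in eYFP- macrophages and at 1.88, 3.70 and 7.85 TPM in eYFP+ macrophages. The 4 groups did not overlap. Macrophages were below monocytes by a log2 difference of -5.46 (SE 0.33, DESeq2 adjusted p = 3.17e-58). Among monocytes the log2 difference of Ly6Chi minus Ly6Clo was 1.27 (SE 0.47) and did not pass (DESeq2 adjusted p = 0.0699). It passed with the replicate block and a count minimum together (DESeq2 adjusted p = 0.0297), after GC correction (DESeq2 adjusted p = 0.0446), and without Ly6Clo replicate 3, eYFP+ replicate 1 or eYFP+ replicate 3 (DESeq2 adjusted p = 0.0341, 0.0234 and 0.0256).

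Itga4, which both beta chains share, was at 43.0, 39.4 and 34.9 TPM in Ly6Chi and at 56.0, 41.0 and 25.9 TPM in Ly6Clo monocytes. It was at 3.50, 5.20 and 5.10 TPM in eYFP+ and at 5.74, 11.3 and 5.05 TPM in eYFP- macrophages. Monocyte groups overlapped, macrophage groups overlapped, and all macrophage libraries lay below all monocyte libraries, with a log2 difference of -2.90 (SE 0.26, DESeq2 adjusted p = 3.58e-28). Part of its transcript (10.9% of words) is shared with other genes, mainly the antisense gene Cerkl.

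Itgb1, the broadly used beta chain, was not called between macrophages and monocytes. Its levels were 34.03, 95.6 and 126 TPM in eYFP+, 71.1, 93.6 and 112 TPM in eYFP-, 75.7, 61.7 and 74.4 TPM in Ly6Chi and 173, 145 and 168 TPM in Ly6Clo libraries. The Ly6Clo group was the highest, and eYFP+ replicate 1 was the lowest library. Macrophages minus monocytes came to -0.39 (SE 0.28, DESeq2 adjusted p = 0.286), with an interval of -0.94 to 0.15. Itgb7 therefore took a smaller share of the Itgb1 and Itgb7 sum in macrophages, 12.8% ± 8.86 (SD, n = 6), than in monocytes, 75.2% ± 17.6 (SD, n = 6). The exact permutation p was 0.00216 (adjusted 0.00433). The log2 ratio of Itga4 to that sum was -4.08 ± 0.61 (SD, n = 6) in macrophages and -3.81 ± 0.69 (SD, n = 6) in monocytes, with an exact permutation p of 0.478.

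Of the alphaV members the beta chain was called and the alpha chain was not. Itgb5 was at 46.9, 47.0 and 58.9 TPM in eYFP+ and at 55.4, 45.3 and 46.1 TPM in eYFP- macrophages. Ly6Clo monocytes held 19.1, 26.6 and 18.1 TPM and Ly6Chi monocytes 6.09, 6.78 and 5.08 TPM. Macrophages were above both monocyte groups, and Ly6Clo above Ly6Chi, without overlap. The log2 difference of macrophages minus monocytes was 2.05 (SE 0.20, DESeq2 adjusted p = 3.75e-22), and that of Ly6Chi minus Ly6Clo was -1.84 (SE 0.29, DESeq2 adjusted p = 3.01e-08).

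Itgav spread widely within groups, at 11.9, 28.2 and 48.3 TPM in eYFP+, 7.93, 38.6 and 9.72 TPM in eYFP-, 16.04, 11.9 and 10.5 TPM in Ly6Chi and 37.3, 17.8 and 12.4 TPM in Ly6Clo libraries. All 4 groups overlapped with another. The log2 difference of macrophages minus monocytes was 0.32 (SE 0.43, DESeq2 adjusted p = 0.625; interval -0.53 to 1.17). The log2 ratio of Itgb5 to Itgav was 1.38 ± 1.10 (SD, n = 6) in macrophages and -0.52 ± 0.85 (SD, n = 6) in monocytes, with an exact permutation p of 0.0173 (adjusted 0.0208). That call was lost after correction for GC content (adjusted p = 0.0545) and when libraries were permuted within replicate numbers (adjusted p = 0.0556).

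In all, 7 of the 9 members with an adjusted p were called between macrophages and monocytes, 3 higher (Itgad, Itgax, Itgb5) and 4 lower (Itgal, Itgb7, Itga4, Itgb2). Itgax was higher only against Ly6Chi monocytes, since both macrophage group means lay below the Ly6Clo mean. Over all 22385 genes tested 35.4% were called. The median log2 difference of the 9 members was -0.39, and that of all genes tested was 0.08. edgeR called the same 7 of these 9, and 35.6% of all genes it tested. Of the 10 members, 2 were called between macrophages of the 2 origins (background 2.04%) and 4 between monocytes (background 8.62%), out of 9 with an adjusted p in each case. edgeR called 0 between macrophage origins (background 0.334%), where 2 had an unadjusted p under 0.05, and 2 between monocytes (background 4.32%). On normalized counts the libraries of macrophages and monocytes did not overlap for 7 of 10 members (6 of 9 without the gated Itgam), against 25.4% of the 13130 genes with a mean of at least 50. Between macrophage origins 3 did not overlap (Itgal, Itgb7 and Itgax, background 16.5%), and between monocytes 7 (background 34.9%).

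**Figure D3:**
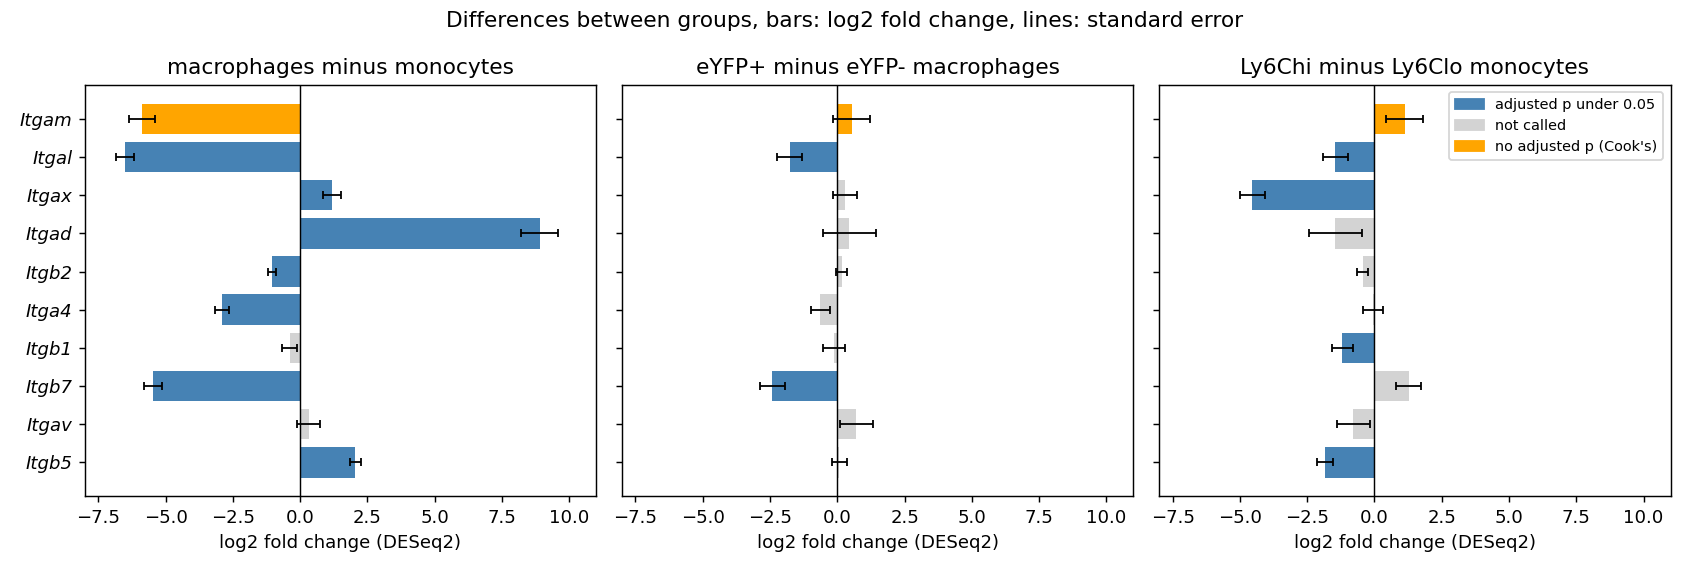
DESeq2 log2 fold change of each member in the 3 contrasts named above each panel (horizontal axis), lines show the SE; blue bars have an adjusted p under 0.05, grey bars do not, and orange bars mark Itgam, which has no adjusted p. Itgad at 8.91 and Itgal at -6.51 are the extremes among macrophages minus monocytes, and Itgb7 and Itgal are the 2 blue bars between macrophage origins.

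Between macrophages of embryonic and adult origin, Itgal and Itgb7 fell in the eYFP+ group, and no other member was called with all libraries in the fit. Itgam, which had no adjusted p, gave 0.53 (SE 0.69) with all libraries and 2.32 (SE 0.47, DESeq2 adjusted p = 0.00019) without eYFP- replicate 2. For Itgb7 the log2 difference was -2.42 (SE 0.47, DESeq2 adjusted p = 7.99e-05), about 5.34-fold, and each eYFP+ library lay below each eYFP- library. With edgeR the adjusted p of Itgb7 was 0.0517. For Itgal the log2 difference was -1.76 (SE 0.47, DESeq2 adjusted p = 0.0120), about 3.39-fold, also without overlap. The Itgal call was lost with edgeR (adjusted p = 0.116), with limma on log2 TPM values (adjusted p = 0.137 and 0.123), after GC correction with DESeq2 (adjusted p = 0.0563), and on leaving out eYFP- replicate 2 (adjusted p = 0.127), eYFP- replicate 3 (adjusted p = 0.0694) or eYFP+ replicate 1 (adjusted p = 0.0883). In these alternatives the log2 difference ranged from -1.81 (without eYFP- replicate 3) to -1.33 (without eYFP- replicate 2). Genes called lower in this contrast were 406 of 21567 (1.88%) and genes called higher 33 (0.153%). For Itga4 the log2 difference was -0.63 (SE 0.36, DESeq2 adjusted p = 0.700), and for Itgb1, Itgb2, Itgb5, Itgad, Itgax and Itgav it lay between -0.12 and 0.71, the lowest adjusted p being 0.952 (DESeq2, Itgav). Without eYFP- replicate 2 the Itgav difference was 1.66 (SE 0.57, DESeq2 adjusted p = 0.0884).

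Markers of some other cell types moved in the same direction in these libraries, whereas the marker sums of others were alike or higher in eYFP+. The summed level of 8 monocyte markers was 14.2 to 25.4 TPM in eYFP+ and 62.5 to 234 TPM in eYFP- macrophages, against 15442 to 15713 TPM in Ly6Chi monocytes, and 3 of the 7 tested were called lower in eYFP+. For 8 stem and progenitor cell markers the sums were 15.5 to 67.9 and 232 to 873 TPM, and 6 of 8 were called lower in eYFP+. Sums of 9 markers of eosinophils, basophils and mast cells were 12.6 to 21.4 and 452 to 1831 TPM, with 1 of 8 called. For 9 neutrophil markers they were 92.3 to 202 and 67.5 to 2034 TPM, with 2 of 9 called lower. The 2034 TPM came from eYFP- replicate 2, which was also the highest library of its group in TPM for 8 of the 10 members (all but Itgb1 and Itgb5), and the other eYFP- libraries had 67.5 and 113 TPM. For 8 dendritic cell markers the sums were 3.95 to 13.4 and 20.7 to 37.6 TPM, with 3 of 8 called lower. The part of these cells in the Itgal and Itgb7 differences was not tested. T and NK cell markers, of cells that carry much LFA-1, summed to 159 to 235 TPM in eYFP+ and 96.5 to 187 TPM in eYFP- macrophages, but the median log2 difference of the 11 genes was -2.06 and 1 of 11 was called lower in eYFP+. Most of the sum was Cd4, at a mean of 195 and 111 TPM, whereas Cd3e was at a mean of 0.36 and 0.168 TPM. Sums of 8 B cell markers were 472 to 702 and 463 to 588 TPM, mostly Cd79b, with a median log2 difference of -1.79 over the 7 tested. Erythroid markers summed to 8912 to 14435 TPM in eYFP+ and 22133 to 35163 TPM in eYFP- macrophages, with 2 of 8 called lower in eYFP+, and the 10 macrophage markers to 38166 to 40846 and 26166 to 33010 TPM. No marker of these lists had 0 counts in all 3 libraries of either macrophage group.

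Between monocytes, Itgax, Itgb5, Itgal and Itgb1 were lower in Ly6Chi cells than in Ly6Clo cells. Itgal differed by -1.45 (SE 0.46, DESeq2 adjusted p = 0.0244), and edgeR gave an adjusted p of 0.0867. Leaving out Ly6Clo replicate 2, the high library, gave -0.90 (DESeq2 adjusted p = 0.138), and the call was also lost without any of the Ly6Chi replicates (DESeq2 adjusted p = 0.0883 to 0.112). Itgb1 differed by -1.19 (SE 0.39, DESeq2 adjusted p = 0.0322), with an edgeR adjusted p of 0.0917 and DESeq2 adjusted p of 0.0747 to 0.161 when one library of Ly6Chi, or Ly6Clo replicate 1 or 3, was left out. That call was also lost after GC correction (DESeq2 adjusted p = 0.0608), without independent filtering (DESeq2 adjusted p = 0.0640) and, barely, without eYFP+ replicate 2 (DESeq2 adjusted p = 0.05003). Itgax and Itgb5 passed under all alternatives run. Itgad, at under 4 TPM in each monocyte library, differed by -1.46 (SE 0.99, DESeq2 adjusted p = 0.420), but by -2.04 without Ly6Clo replicate 2 (DESeq2 adjusted p = 0.00173) and by -0.15 without Ly6Clo replicate 3. For Itga4 the log2 difference was -0.05 (SE 0.36) and changed sign after GC correction (0.10). Dendritic cell markers summed to 604 to 2830 TPM in Ly6Clo and 110 to 124 TPM in Ly6Chi monocytes, with 4 of 8 called lower and 1 higher in Ly6Chi. The highest of these sums was in Ly6Clo replicate 2, the library with the most Itgal and the least Itgax of its group. Of the 10 macrophage markers, 7 were called lower in Ly6Chi (558 to 660 against 637 to 1238 TPM). Stem and progenitor cell markers were at 948 to 1515 TPM in Ly6Chi and 28.2 to 81.3 TPM in Ly6Clo monocytes, with 4 of 8 called higher in Ly6Chi. Lower in Ly6Chi were sums of megakaryocyte and platelet markers (1.94 to 3.99 against 58.6 to 77.4 TPM, although the median log2 difference of the 6 tested was 1.24), T and NK cell markers (0.946 to 4.06 against 17.9 to 36.5 TPM) and B cell markers (29.6 to 36.1 against 58.3 to 154 TPM), with 2 genes of each list called lower. Neutrophil marker sums were 14995 to 22585 TPM in Ly6Chi and 6776 to 16002 TPM in Ly6Clo monocytes, with 1 of 9 called, lower in Ly6Chi. Eosinophil, basophil and mast cell marker sums were 2.02 to 157 and 0.00 to 579 TPM. Of 8 tested, 1 was called higher and 2 lower in Ly6Chi, and the 579 TPM came from Ly6Clo replicate 3. The part of these cells in the member differences was not tested.

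Each macrophage group was also set against each monocyte group. Itgal, Itgad, Itgb2, Itga4, Itgb7 and Itgb5 were called in the same direction in all 4 of these comparisons, which share their libraries. After GC correction Itgb5 was not called against Ly6Clo monocytes, for eYFP+ (DESeq2 adjusted p = 0.309) or eYFP- macrophages (DESeq2 adjusted p = 0.565). The Itgb7 log2 difference ranged from -7.30 (eYFP+ minus Ly6Chi, SE 0.47) to -3.61 (eYFP- minus Ly6Clo, SE 0.47), and that of Itgal from -8.11 (eYFP+ minus Ly6Clo, SE 0.46) to -4.90 (eYFP- minus Ly6Chi, SE 0.46). Itgb1 was called only for eYFP+ against Ly6Clo (-1.05, SE 0.39, DESeq2 adjusted p = 0.0295), and the same difference for eYFP- was -0.93 (SE 0.39, DESeq2 adjusted p = 0.0636). The eYFP+ call was lost without Ly6Clo replicate 1 or 3 or eYFP+ replicate 2 (DESeq2 adjusted p = 0.0558 to 0.0849), and the eYFP- difference passed without Ly6Clo replicate 2 (DESeq2 adjusted p = 0.0420) or eYFP+ replicate 1 (DESeq2 adjusted p = 0.00114). In each of the 4 comparisons 7 members were called, with backgrounds of 24.5%, 28%, 27.4% and 26.3%.

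The ligands of these integrins are made by other cells and in part by the sorted cells. Of 16 listed ligands, 4 were called higher and 6 lower in macrophages among 15 tested, with a median log2 difference of -1.57; over all genes 35.4% were called with a median of 0.08. Vcam1, the ligand of alpha4 integrins, is one of the higher genes but was a gate of the sort, and was at 8965 to 14369 TPM in macrophages and 14.4 to 90.2 TPM in monocytes. Icam1, a ligand of LFA-1 and Mac-1, was at 200 to 260 TPM in macrophages and 29.99 to 89.0 TPM in monocytes, a log2 difference of 1.88 (SE 0.21, DESeq2 adjusted p = 1.23e-18). Pecam1, an adhesion molecule of cell contacts, had a log2 difference of 0.999 (SE 0.27), a mean over unlike monocyte groups: macrophages held 32.4 to 52.9 TPM, Ly6Chi monocytes 5.39 to 8.10 TPM and Ly6Clo monocytes 48.1 to 101 TPM. F11r, another such molecule, had a log2 difference of 1.43 (SE 0.46), and single groups passed only for eYFP+ against Ly6Chi (DESeq2 adjusted p = 0.0318). Icam2, another ligand of LFA-1, went the other way, at 2.97 to 19.8 TPM in macrophages against 52.8 to 103 TPM in monocytes, with a log2 difference of -3.30 (SE 0.21, DESeq2 adjusted p = 5.01e-53).

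The other ligands named were lower in macrophages as a mean over both monocyte groups. Against Ly6Chi monocytes, DESeq2 called 6 listed ligands lower in eYFP+ and 6 in eYFP- macrophages (4 and 3 higher). Against Ly6Clo monocytes it called 3 and 2 lower (2 and 2 higher). Complement C3, whose fragment iC3b binds Mac-1, had a log2 difference of -3.25 (SE 0.46), and Mfge8, the alphaV bridging protein, one of -2.29 (SE 0.36). Fn1 (fibronectin, a VLA-4 ligand) had a log2 difference of -6.91 (SE 1.14) and was a Ly6Chi transcript, at 540 to 671 TPM there and under 5 TPM in the other 3 groups. Ly6Chi monocytes also exceeded Ly6Clo monocytes in C3, by 3.23 (SE 0.65), and in Tgfbi, by 2.44 (SE 0.52), and were below them in Pecam1 by -3.42 (SE 0.38), and in Vcam1 by -1.97 (SE 0.40). Icam2 and Mfge8 were called between macrophages, with log2 differences of -2.09 (SE 0.30, DESeq2 adjusted p = 8.24e-09) and -2.47 (SE 0.51, DESeq2 adjusted p = 0.000292) in eYFP+ minus eYFP-. For Mfge8 edgeR gave an adjusted p of 0.0698.

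The genes that open integrins or tie them to actin differed in both directions: of 28 listed and tested, 12 were called lower in macrophages, 3 higher and 13 neither way, with a median log2 difference of -0.40, beside 35.4% of all genes called and their median of 0.08. Rassf5 (RAPL, which links active Rap1 to LFA-1) fell, at 80.0 to 97.6 TPM in macrophages and 212 to 408 TPM in monocytes, with a log2 difference of -1.80 (SE 0.12, DESeq2 adjusted p = 1.50e-52). Lims1 (PINCH1, a partner of integrin-linked kinase) had -2.55 (SE 0.30), Vcl (vinculin, an actin linker) -3.81 (SE 0.54) and Fgr, a Src-family kinase of myeloid cells, -1.07 (SE 0.16). Ptk2 (focal adhesion kinase) rose by 4.54 (SE 0.37), from 0.132 to 1.06 TPM in monocytes to 6.66 to 18.2 TPM in macrophages. Parvg (gamma-parvin, the hematopoietic parvin) rose by 2.81 (SE 0.25) and Rasgrp2, the exchange factor that activates Rap1, by 1.14 (SE 0.20). None of the 28 was called between macrophage origins by DESeq2 or edgeR, and 3 had an unadjusted p under 0.05 with DESeq2 and 2 with edgeR. Between monocytes Rap1b, a small GTPase that activates integrins, was lower in Ly6Chi by -1.96 (SE 0.44), Rassf5 by -0.78 (SE 0.16), and Vcl was higher by 2.26 (SE 0.76, DESeq2 adjusted p = 0.0398, edgeR adjusted p = 0.149).

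Of the 17 other integrin subunits 15 were tested, 2 were called higher and 4 lower in macrophages, with a median of 0.55 over the tested genes, so that 6 of 15 were called beside 35.4% of all genes. Itga9, an alpha chain that pairs with beta1 and binds VCAM1 and osteopontin, stood at 8.45 to 16.5 TPM in macrophages and 0.00 to 1.46 TPM in monocytes, a log2 difference of 6.06 (SE 1.02, DESeq2 adjusted p = 2.60e-08). Itga2b, the platelet alphaIIb chain, had 3.01 (SE 0.72), but its signal lay in 1 macrophage group: 11.2 to 21.1 TPM in eYFP- and 0.457 to 0.960 TPM in eYFP+, with a log2 difference of -4.34 (SE 0.997, DESeq2 adjusted p = 0.00180, edgeR adjusted p = 0.170). The summed level of 8 megakaryocyte and platelet markers was 121 to 201 TPM in eYFP+ and 132 to 183 TPM in eYFP-, with a median log2 difference of -1.13 over the 6 tested. Stem and progenitor cell marker sums were 15.5 to 67.9 TPM in eYFP+ and 232 to 873 TPM in eYFP-. Those of eosinophils, basophils and mast cells were 12.6 to 21.4 and 452 to 1831 TPM. The part of such cells in the Itga2b difference was not tested.

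As a mean over both monocyte groups, Itgb3, the partner of alphaIIb and alphaV, was lower in macrophages by -3.43 (SE 0.50). Itgb2l, a paralog of Itgb2, was lower by -7.60 (SE 1.55) and Itga8 by -3.29 (SE 0.83). Itga5, the fibronectin receptor chain, was lower by -1.78 (SE 0.62, DESeq2 adjusted p = 0.0144, edgeR adjusted p = 0.0556). Against Ly6Chi monocytes, DESeq2 called 5 other subunits lower in eYFP+ and 4 in eYFP- macrophages (2 and 3 higher). Against Ly6Clo monocytes it called 3 and 1 lower (2 and 5 higher). Itga5 was mainly a Ly6Chi transcript, at 46.3 to 50.2 TPM there and at most 16.6 TPM in the other groups. Between monocytes Itga1, a collagen receptor chain, was higher in Ly6Chi by 6.38 (SE 0.95), at 2.95 to 4.82 TPM against 0.00 to 0.151 TPM. Itga3 was lower by -6.75 (SE 1.87) at levels under 1 TPM, with an edgeR adjusted p of 0.0974.

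**Figure D4:**
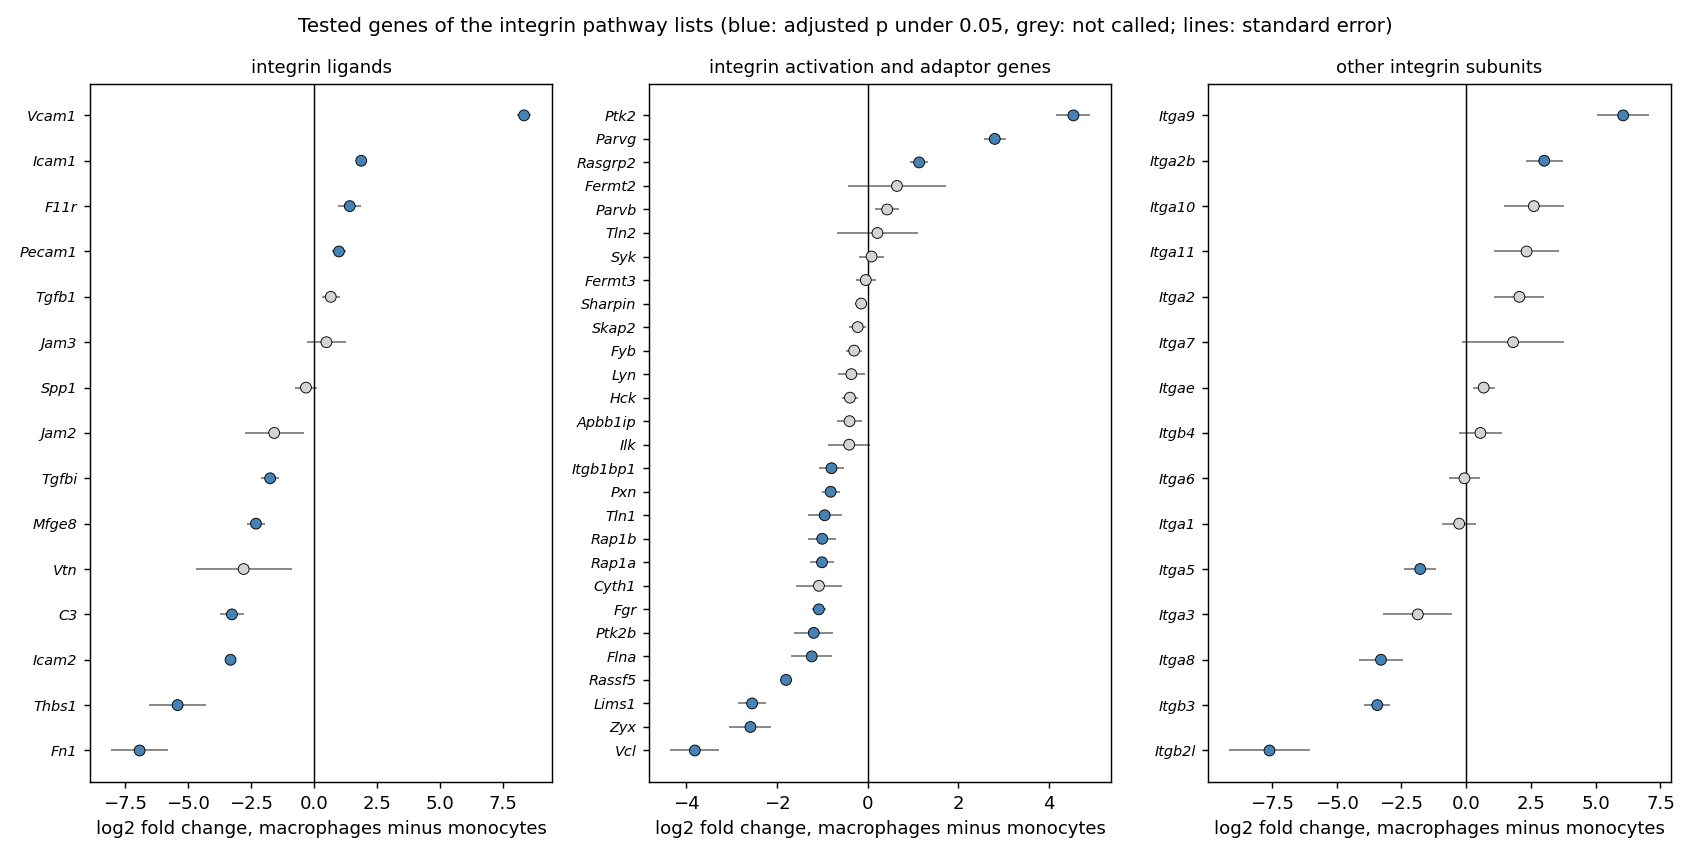
DESeq2 log2 fold change of macrophages minus monocytes (horizontal axis) for each tested ligand (left, 15 genes), activation or adaptor gene (middle, 28 genes) and other integrin subunit (right, 15 genes); lines show the SE, blue points have an adjusted p under 0.05. Among the adaptors 12 blue points lie below 0 and 3 above it (Ptk2, Parvg, Rasgrp2).

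The pattern of each member was compared with 12935 genes by Pearson correlation over the 12 libraries, on the variance-stabilised table, as a description without a test, since the points fall into 4 groups. Itgad was most like Fgf1 (r = 0.996), Parvg (r = 0.996) and Mrap (r = 0.995). Itgal was most like Samsn1 (r = 0.993), Gm7809 (r = 0.991) and Skint3 (r = 0.991), Itgam like Tec (r = 0.995) and Tifab (r = 0.988), and Itgb7 like S100a11 (r = 0.992), Gda (r = 0.989) and Coro1a (r = 0.987). Itgb2 was most like Gm14699 (r = 0.987), with which it shares 1.16% of its words, then Rassf5 (r = 0.977) and Trem1 (r = 0.973). Itga4 followed Lrrk2 (r = 0.987), 9830107B12Rik (r = 0.987) and Abcb1b (r = 0.984), and Itgb5 followed Mccc2 (r = 0.990), Rcn3 (r = 0.990) and Cd81 (r = 0.988). Likeness was lower for Itgax (Heg1, Ear2 and Sipa1l1, r = 0.953 to 0.956), Itgav (Hip1, Ralgps1 and Tgfbr1, r = 0.926 to 0.943) and Itgb1 (Hnrnph3, Gm6159 and P2ry10, r = 0.895 to 0.916). Among the members themselves, Itgal and Itga4 were the most alike (r = 0.971) and Itgad and Itga4 the most opposed (r = -0.959).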

How the data were processed

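RNA of sorted bone marrow myeloid cells was amplified as cDNA and sequenced, with 3 libraries in each of 4 groups. In the study's methods, reads were trimmed, corrected for errors and cleared of ribosomal sequence, and the authors aligned them with segemehl to GRCm39 and counted unambiguously aligned pairs over exons per gene with featureCounts. How pairs that overlap more than one gene were treated is not given in the sources used here. The deposited counts are whole numbers per Ensembl gene. The TPM values were made by the authors from counts and gene length and scaled to a constant library sum. The third deposited table holds variance-stabilised counts by the authors, on a scale close to log2. No molecular identifiers were described, so reads are not independent molecules, and the counts of genes that overlap or share sequence are uncertain. Whether strand was used is not given in the sources used here. The submitters' processing notes name bcl2fastq 2.20.0.422, featureCounts and DESeq2.

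The test of counts was that of DESeq2 1.42.0 (R 4.3.3), in 1 fit over 12 libraries with the group as factor, unshrunken log2 fold changes and Benjamini-Hochberg adjusted p under 0.05. Ratios of TPM were tested over libraries by exact permutation, two-sided. Symbols came from GENCODE M21, which matched 91.4% of identifiers, and its transcripts gave the 50-base words shared between genes. The scripts were tested on simulated data. Members, gene lists and marker lists were chosen with earlier results of these data known, and no p adjusted over a list is given. Listed genes were named from each list where the adjusted p was under 0.05: by adjusted p, the first 4 higher and 4 lower for macrophages against monocytes (mean of at least 50 normalized counts), the first 3 higher and 3 lower for monocytes, and all between macrophages. The 3 genes most like each member were named among genes of that mean, except 1 that is not reported here. Marker lists covered macrophages, monocytes, neutrophils, T and NK cells, B cells, megakaryocytes and platelets, eosinophils with basophils and mast cells, dendritic, stem and progenitor, and erythroid cells. Group and replicate number came from sample titles. Same-numbered macrophage libraries deviated together over the 2000 genes of highest mean (r = 0.456, 0.332 and 0.152) but less over the 2000 of highest variance (0.301, 0.165 and 0.0617), whereas of the monocyte pairs 1 did over the genes of highest mean (r = 0.307, 0.0314 and -0.01), and a shared mouse is not stated, so the block is an alternative. Other alternatives were edgeR 4.0.16, scaling by TMM or by total counts, genes with at least 10 counts in 3 libraries, DESeq2 without its Cook's cutoff or without its independent filtering, libraries of the compared groups only, limma 3.58.1 on log2(TPM + 1) or log2(TPM + 0.1), a GC correction (curve per library), normalized counts in place of TPM for ratios, and leaving out each library.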

Additional observations from a re-analysis of the deposited data

How the results depend on the processing

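Between macrophages and monocytes the number of members called was 7 or 8 under each alternative, the eighth being the gated Itgam, and in the other 4 comparisons of a macrophage with a monocyte group it was 6 to 9. Between macrophage origins the 2 calls became 0 with edgeR (with or without the replicate block), 1 with limma on either TPM scale and 1 after GC correction, and 1 to 2 on leaving out each library in turn. Leaving out eYFP- replicate 3 or eYFP+ replicate 1 left 1 call (Itgb7), and without eYFP- replicate 2 the 2 calls were Itgb7 and Itgam, Itgal being lost. Between monocytes the 4 calls became 2 with edgeR (with or without the block) and 2 with limma on either scale, and 2 to 5 on leaving out a library, with 2 without any of the Ly6Chi replicates. Itgb7 joined the monocyte calls under 5 alternatives, Itgam and Itgad each on leaving out 1 library, and Itgb1 left them after GC correction, so equal counts can hold other members. The replicate block in DESeq2 kept 2 calls between macrophages (Itgal adjusted p = 0.00198, Itgb7 adjusted p = 1.01e-05). The log2 ratio of Itgb5 to Itgav differed by 1.80 after GC correction and by 1.90 under permutation within replicate numbers (the block), each past no threshold after adjustment. The other ratios kept their direction and side of the threshold. Counts of the 3 pathway lists between macrophages and monocytes stayed within 1.5 times (5 to 7 other subunits, 12 to 17 adaptors, 8 to 11 ligands). Directions turned only for members that were not called in that comparison. For eYFP+ minus eYFP- these were Itgb1 (-0.46 to 0.23 on leaving out each library) and Itgb5 (-0.024 with total-count scaling, -0.046 to 0.25 on leaving out each library). For Ly6Chi minus Ly6Clo it was Itga4 (0.023 in the edgeR block, 0.10 after GC correction, -0.29 to 0.18 on leaving out each library). On leaving out each library Itgav ranged from -0.15 to 0.56 for macrophages minus monocytes, -0.20 to 0.78 for eYFP+ minus Ly6Clo, -0.58 to 0.70 for eYFP- minus Ly6Chi and -1.37 to 0.061 for eYFP- minus Ly6Clo, and Itgb1 from -0.19 to 0.49 for eYFP+ minus Ly6Chi. The cause was not tested.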
